A study of Triticum aestivum and Aegilops tauschii and Triticum carthlicum with 33 samples.

Results

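GAPN, FBP and Pgk-1 encode enzymes that handle the sugar phosphates shared by glycolysis and the Calvin cycle, and their transcripts were followed in leaves of wheat and Aegilops tauschii. They are 3 of the 771 genes that the platform annotation names, chosen by symbol, and it gives them 4 of the 61179 tested probe sets, all of which are described. GAPN (Entrez Gene 543435) and Pgk-1 (LOC543496) have 1 probe set each, and FBP (Entrez Gene 543276) has 2. FBP is read below from the brighter of its probe sets unless the dim one is named.

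Leaf RNA was hybridised to the Affymetrix wheat GeneChip on 33 arrays, with 11 groups of 3 replicates that the labels call biological. Plants of every group were raised in chambers set to 24 °C (day) and 20 °C (night), under 16 h days. XX329 was an allohexaploid resynthesized with Extracted-tetra as the mother and TQ18 as the D genome parent, and XX329 mix was RNA of these parents, 2 parts to 1. Allo-960S7 was a newly synthesized hexaploid in selfed generation 7, and Allo-960 mix was RNA of its parents Blackbird and 30A, 2 parts to 1. TQ18 and 30A were Aegilops tauschii, a diploid with the D genome. Extracted-tetra carried the BBAA subgenomes recovered from a bread wheat by a durum cross and backcrossing. TAA10 was bread wheat (BBAADD), and its sample labels do not say whether it was the donor of Extracted-tetra. TTR13 (durum), TD265 (dicoccoides) and Blackbird (carthlicum) were natural tetraploids with BBAA. Each genotype was 1 line, so a difference between groups is a difference between lines, and nothing in the labels gives plant age or which plants were pooled.

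Phosphoglycerate kinase, which Pgk-1 encodes, works in both directions: in glycolysis it makes ATP while forming phosphoglycerate, and in the Calvin cycle it spends ATP on the way to triose phosphate. FBP encodes fructose-bisphosphatase, which removes a phosphate from fructose bisphosphate in a practically irreversible step, and RefSeq lists pre-FBPase as its alias. In the chloroplast this step helps to regenerate the CO2 acceptor and feeds starch, and in the cytosol it feeds sucrose. GAPN is the non-phosphorylating glyceraldehyde-3-phosphate dehydrogenase of the plant cytosol, which oxidises triose phosphate straight to phosphoglycerate, bypassing phosphoglycerate kinase, and yields NADPH in place of ATP. The annotation does not say which compartment's enzyme the FBP and Pgk-1 probe sets read.

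Medians of single arrays ran from 4.37 to 4.481 on the log2 scale, and arrays of 1 group correlated with r from 0.9792 to 0.996. The hybridisation controls averaged 9.123 to 9.542 on the 12 arrays of the Allo-960 family (Allo-960S7, its mix and both parents), and 9.694 to 10.31 on the other 21, so any comparison across these sets of arrays cannot tell the set and the line apart. The leaf markers PsbO and PsbP, proteins of the oxygen-evolving complex, lay between 14.25 and 14.46 on every array. The other leaf marker, rbcl, the large subunit of Rubisco, was lower and less even, at 7.36 to 10.28. Of 11 seed storage genes, 10 stayed at or under 5.27, while an avenin-like gene (LOC100125692) read 9.42 to 10.27. Values are log2 expression summaries, a mean ± SD is over arrays, and a probe set was called, and is said to have risen or fallen, at a Benjamini-Hochberg adjusted p under 0.05 from limma fitted to all tested probe sets. The median difference over all tested probe sets reached −0.13 (XX329 against TQ18, and Allo-960S7 against 30A), and centring each array on its median ended no call of the 3 genes except that of FBP in Extracted-tetra against the natural tetraploids.

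GAPN, FBP and Pgk-1 were well measured in every group, with array values of 10.70 to 11.89, 11.63 to 12.51 and 13.38 to 14.35. Pgk-1 came near the highest value in the whole table, 15.09, where an array can compress differences, which was not tested. The dim FBP probe set lay between 2.82 and 3.89, under every array median. Its group means spanned 0.37 log2 units with a pooled SD of 0.226 within groups, and it was called in none of the 19 comparisons on the deposited scale (smallest adjusted p = 0.0903, TQ18 against Extracted-tetra), so it is not read further. Control centring called it in 4 comparisons, all across the sets of arrays, where that centring called 38668 to 53249 of the 61179 tested probe sets. The group means of GAPN spanned 0.94 log2 units (pooled SD within groups 0.127), those of FBP 0.64 (0.0927) and those of Pgk-1 0.71 (0.104). All 3 genes therefore varied by under 1 log2 unit among lines of 3 ploidy levels.

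**Figure D1:**
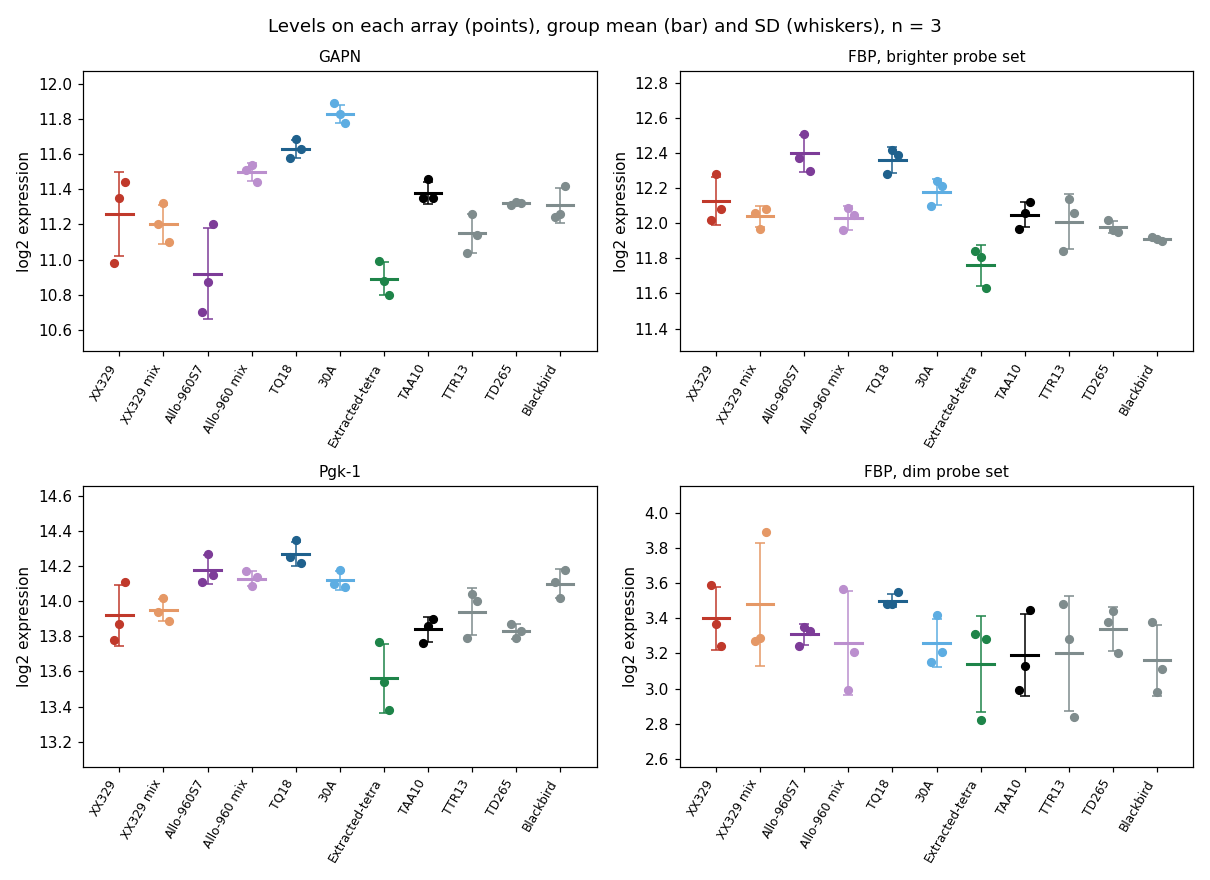
Log2 expression (y axis) of the 4 probe sets on each array, by group (x axis). Points are arrays, thick bars are group means and whiskers are the SD over 3 arrays. Each panel spans the same number of log2 units. Extracted-tetra has the lowest mean in all 4 panels, and Allo-960S7 is low for GAPN (10.92) but high for FBP (12.40).

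On the deposited scale Extracted-tetra had the lowest group mean of the 11 groups in all 4 probe sets, a place it held in 10.4% of all tested probe sets. In the dim FBP probe set this rank is not secure, at 3.14 ± 0.274 in Extracted-tetra beside 3.16 in Blackbird, and that probe set is of the same gene as the brighter one. At the upper end 30A was highest for GAPN, Allo-960S7 for FBP, and TQ18 for Pgk-1 and the dim FBP probe set. In the order of GAPN levels, 30A (11.83), TQ18 (11.63) and Allo-960 mix (11.50) stood apart from each other without overlap, and TAA10 (11.38) overlapped the mix but not TD265. Each of TD265 (11.32), Blackbird (11.31), XX329 (11.26), XX329 mix (11.20), TTR13 (11.15), Allo-960S7 (10.92) and Extracted-tetra (10.89) then overlapped its neighbour. For FBP, Allo-960S7 (12.40) and TQ18 (12.36) overlapped at the top, and each of the 7 groups from 30A (12.18) down to TD265 (11.98) overlapped its neighbour. Blackbird (11.91) and Extracted-tetra (11.76) had the lowest FBP means, but the lowest TTR13 array, at 11.84, lay under all arrays of Blackbird and level with the highest of Extracted-tetra. For Pgk-1, TQ18 (14.27), Allo-960S7 (14.18), Allo-960 mix (14.13), 30A (14.12) and Blackbird (14.10) each overlapped the next, as did XX329 mix (13.95), TTR13 (13.94), XX329 (13.92), TAA10 (13.84) and TD265 (13.83) after them. Blackbird and XX329 mix, neighbours in this order, did not overlap, but single arrays of XX329 (up to 14.11) and TTR13 (up to 14.04) reached the range of Blackbird. Extracted-tetra (13.56) had the lowest Pgk-1 mean, and its highest array, at 13.77, reached that of TAA10 (lowest 13.76). Of the 5 groups with the highest Pgk-1 means, 4 came from the set of 12 arrays.

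Over the 11 group means, FBP and Pgk-1 had a Pearson r of 0.77 (Spearman rho 0.645), GAPN and Pgk-1 0.525 (0.391), and GAPN and FBP 0.31 (0.327). These are descriptions over 11 points that share parents, arrays and RNA, since each mix holds the RNA of its parents.

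The first comparison sets the BBAA subgenomes alone against a bread wheat that carries BBAA together with D. Whether a probe set reads D genome copies as it reads those of BBAA was not tested, here or in the comparisons below. GAPN and FBP fell in Extracted-tetra relative to TAA10. GAPN read 10.99, 10.88 and 10.80 in Extracted-tetra, against 11.35, 11.46 and 11.35 in TAA10. FBP, the bisphosphatase, read 11.84, 11.81 and 11.63 in Extracted-tetra, against 11.97, 12.06 and 12.12 in TAA10. The arrays of neither gene overlapped between the groups. In whole leaves, fewer cells with a transcript and less of it per cell cannot be told apart. Mean GAPN was 10.89 ± 0.0941 in Extracted-tetra, against 11.38 ± 0.0622 for TAA10 (n = 3 each), a difference of −0.49 (SE 0.11) or 1.41-fold, adjusted p = 0.00204 by limma. FBP averaged 11.76 ± 0.115 and 12.05 ± 0.0738 (n = 3 each), a difference of −0.29 (SE 0.10) or 1.23-fold, with a limma adjusted p of 0.0289. Pgk-1 read 13.77, 13.54 and 13.38 in Extracted-tetra, against 13.76, 13.86 and 13.90 in TAA10. The first replicate of Extracted-tetra overlapped TAA10 here, and the difference of −0.28 (SE 0.10, 95% interval −0.48 to −0.07) missed the threshold (limma adjusted p = 0.0562). So 2 of 4 probe sets were called, where 18.3% of all tested probe sets were. The FBP call was lost without replicate 3 of Extracted-tetra or replicate 2 or 3 of TAA10 (−0.34 to −0.23 over single arrays left out, adjusted p up to 0.166), and Pgk-1 passed without replicate 1 of Extracted-tetra (−0.38, adjusted p = 0.0119) and under 4 of 9 other alternatives. The 3′ minus 5′ difference of the actin control probe sets can reflect RNA quality, but its group means ran from −1.5 in 30A to 0.337 in Extracted-tetra. Whether it follows RNA quality or the line was not tested. It averaged 0.337 ± 0.245 over the 3 Extracted-tetra arrays, against −0.464 ± 0.186 over the 3 of TAA10. With it as a covariate GAPN was −0.45 (SE 0.16, limma adjusted p = 0.0875) and FBP −0.36 (SE 0.14, limma adjusted p = 0.103), each with a larger SE than before. Centring on the hybridisation controls left −0.50 and −0.30 but neither passed (adjusted p = 0.0668 and 0.21).

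Against the natural tetraploids, the comparison asks how the BBAA subgenomes of a bread wheat differ from those of tetraploids without a D genome. Transcripts of all 3 enzymes fell in Extracted-tetra. Pgk-1 averaged 13.56 ± 0.195 in Extracted-tetra (n = 3) and 13.96 ± 0.144 in the natural tetraploids (n = 9), a difference of −0.39 (SE 0.08) or 1.31-fold, limma adjusted p = 0.000651. The highest Extracted-tetra array, at 13.77, lay just under the lowest natural tetraploid array, at 13.79. GAPN averaged 10.89 ± 0.0941 in Extracted-tetra (n = 3) and 11.26 ± 0.111 in the natural tetraploids (n = 9), again without overlap (−0.37, SE 0.09, limma adjusted p = 0.00417). FBP, at −0.21 (SE 0.08), overlapped and only just passed (limma adjusted p = 0.048). Here 3 of 4 probe sets were called, against 24.4% of all tested. The FBP call was lost when any of 10 of the 12 arrays was left out (Extracted-tetra replicates 2 and 3, TTR13 replicates 2 and 3, and every array of TD265 and Blackbird), or when TTR13 or TD265 was left out of the mean. Without Blackbird, so within 1 set of arrays, the differences were −0.34 for GAPN (adjusted p = 0.0126), −0.24 for FBP (adjusted p = 0.0379) and −0.32 for Pgk-1 (adjusted p = 0.00816). The actin covariate ended all 3 calls (adjusted p = 0.239, 0.209 and 0.118), with differences of −0.32, −0.28 and −0.36. P values here measure the spread between arrays, not between tetraploid lines.

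TAA10 itself was not called apart from the natural tetraploids in any of the 4 probe sets, where 29.4% of all tested probe sets were called. Its differences were 0.13 for GAPN (95% interval −0.06 to 0.32), 0.08 for FBP (−0.08 to 0.24) and −0.12 for Pgk-1 (−0.29 to 0.05). The natural tetraploids were also not called apart from each other in any of the 4 probe sets, in comparisons that called 22.3% (TTR13 against TD265), 16.3% (TTR13 against Blackbird) and 20.1% (TD265 against Blackbird) of all tested. Pgk-1 came closest in TD265 against Blackbird, with 13.87, 13.79 and 13.83 in TD265 and 14.11, 14.02 and 14.18 in Blackbird (−0.27, SE 0.10, limma adjusted p = 0.0572). These arrays did not overlap, and the difference passed under 7 of 9 alternatives (adjusted p from 3.43e-05 to 0.0454), but the lines lie in different sets of arrays. Control centring, where Blackbird averaged 9.29 and TTR13 and TD265 9.88 each, also called GAPN and FBP apart between Blackbird and either of the other lines, and Pgk-1 in TTR13 against Blackbird (−0.74). Of the 61179 tested probe sets, that centring called 45916 in TTR13 against Blackbird and 46502 in TD265 against Blackbird.

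The diploid D genome lines had the highest group means for GAPN only. For FBP, Allo-960S7 (12.40) was highest, and for Pgk-1, 30A (14.12) lay close to Blackbird (14.10). In Aegilops tauschii the transcript signals of all 3 genes rose relative to the natural tetraploids. Level and unlike reading of D and BBAA copies by a probe set cannot be told apart in this comparison. GAPN read 11.58, 11.69 and 11.63 in TQ18 and 11.89, 11.83 and 11.78 in 30A, against a lowest, median and highest array of 11.04, 11.26 and 11.42 in the natural tetraploids. Every diploid array exceeded every tetraploid one. GAPN averaged 11.73 ± 0.12 (n = 6) in Aegilops tauschii and 11.26 ± 0.111 (n = 9) in the natural tetraploids, 0.48 higher (SE 0.07) or 1.39-fold, limma adjusted p = 2e-06. FBP was 0.31 higher (SE 0.06), at 12.27 ± 0.12 (n = 6) and 11.97 ± 0.0935 (n = 9), limma adjusted p = 9.44e-05, with overlapping arrays. Pgk-1 was 0.24 higher (SE 0.07, limma adjusted p = 0.00263), also with overlap. These 3 calls among 4 probe sets stand beside 51.6% called of all tested. The n count arrays of the lines TQ18 and 30A, and of TTR13, TD265 and Blackbird. P values in this comparison too measure the spread between arrays, not between lines. With both lines of the 12 arrays left out, TQ18 differed from the mean of TTR13 and TD265 by 0.40, 0.37 and 0.39 for GAPN, FBP and Pgk-1 (limma adjusted p = 0.00121, 0.000428 and 0.000468). The Pgk-1 call was lost without TQ18 (0.16, adjusted p = 0.112) and with the actin covariate (0.21, adjusted p = 0.0928), and control centring ended it (0.11) and that of FBP (0.18).

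Within the 12 arrays, 30A against Blackbird, GAPN and FBP rose and Pgk-1 was not called (38.6% of all tested were). GAPN was 0.53 higher in 30A (SE 0.11, limma adjusted p = 0.00032) and FBP 0.27 higher (SE 0.10, limma adjusted p = 0.0229). The Pgk-1 difference was 0.02 (95% interval −0.19 to 0.23). Single arrays decided the FBP call, which was lost without any of 5 of the 6 (all but replicate 1 of 30A; adjusted p up to 0.0817). Control centring left 0.38 for GAPN (adjusted p = 0.112) and 0.13 for FBP (adjusted p = 0.601). The diploids themselves, TQ18 and 30A, were called apart in 0 of 4 probe sets by limma (smallest adjusted p = 0.196, FBP, and 0 also at an unadjusted p under 0.05), where 18.5% of all tested were called. Their arrays did not overlap in any of the 4, but how many of all tested probe sets also lacked overlap was not counted. TQ18 minus 30A was −0.20 for GAPN, 0.18 for FBP and 0.15 for Pgk-1. These lines lie in different sets of arrays, and control centring turned the FBP and Pgk-1 values to −0.56 and −0.59 and moved GAPN to −0.94, all 3 then called. That centring called 53249 of the 61179 tested probe sets in this comparison, so these calls are not particular to the 3 genes.

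TQ18 and Extracted-tetra, the parents of XX329, were called apart for the transcripts of all 3 enzymes. GAPN was 0.74 higher in TQ18 (SE 0.11, limma adjusted p = 2.48e-06), FBP 0.61 higher (SE 0.10, limma adjusted p = 3.46e-06) and Pgk-1 0.71 higher (SE 0.10, limma adjusted p = 7.01e-07). The folds were 1.67, 1.52 and 1.64. All 3 passed without any single array and with the actin covariate, in a comparison that called 45.5% of all tested probe sets. The hybridisation controls averaged 10.2 in TQ18 and 9.84 in Extracted-tetra, and centring on them left 0.40, 0.26 and 0.36, none of which passed (adjusted p = 0.0726, 0.135 and 0.0592).

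XX329 rejoined the D genome to Extracted-tetra, and its transcripts of the 3 enzymes rose relative to that parent. GAPN read 10.98, 11.35 and 11.44 in XX329, against 10.99, 10.88 and 10.80 in Extracted-tetra. The lowest XX329 array lay within the range of its parent. FBP read 12.02, 12.28 and 12.08 in XX329, against 11.84, 11.81 and 11.63 in Extracted-tetra. Pgk-1 read 13.78, 13.87 and 14.11 in XX329, against 13.77, 13.54 and 13.38 in Extracted-tetra, so that neither FBP nor Pgk-1 overlapped. The differences were 0.37 (SE 0.11), 0.37 (SE 0.10) and 0.36 (SE 0.10), or 1.29-fold, 1.29-fold and 1.28-fold, with limma adjusted p of 0.0222, 0.00535 and 0.0114, where 18.7% of all tested probe sets were called. GAPN lost the call without replicate 2 or 3 of either group and Pgk-1 without replicate 3 of either. The actin difference averaged −0.406 ± 0.182 over the 3 arrays of XX329, against 0.337 ± 0.245 over those of Extracted-tetra, and with it as a covariate FBP passed (0.43, adjusted p = 0.0304) while GAPN (0.33, adjusted p = 0.224) and Pgk-1 (0.32, adjusted p = 0.16) did not. Centring on the hybridisation controls, which averaged 10.1 in XX329 and 9.84 in Extracted-tetra, left 0.10, 0.11 and 0.10 with no call. A fit of these groups alone gave the same differences, also with no call (adjusted p = 0.184, 0.126 and 0.197).

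Relative to its D genome parent TQ18, XX329 fell in GAPN (−0.38, SE 0.11, limma adjusted p = 0.00964) and Pgk-1 (−0.35, SE 0.10, limma adjusted p = 0.0065), while FBP, at −0.24 (SE 0.10), missed the threshold (limma adjusted p = 0.0526). Of all tested probe sets 36.8% were called. Both calls were lost without replicate 1 of XX329 (−0.24 for GAPN, −0.28 for Pgk-1), and FBP passed without replicate 2 of XX329 or replicate 1 of TQ18. With the replicate block FBP passed (−0.24, adjusted p = 0.047), as it did under 3 other alternatives (adjusted p from 0.0283 to 0.0497), and neither GAPN (−0.29) nor Pgk-1 (−0.27) passed with control centring, nor in a fit of these groups alone (adjusted p = 0.133 and 0.129).

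**Figure D2:**
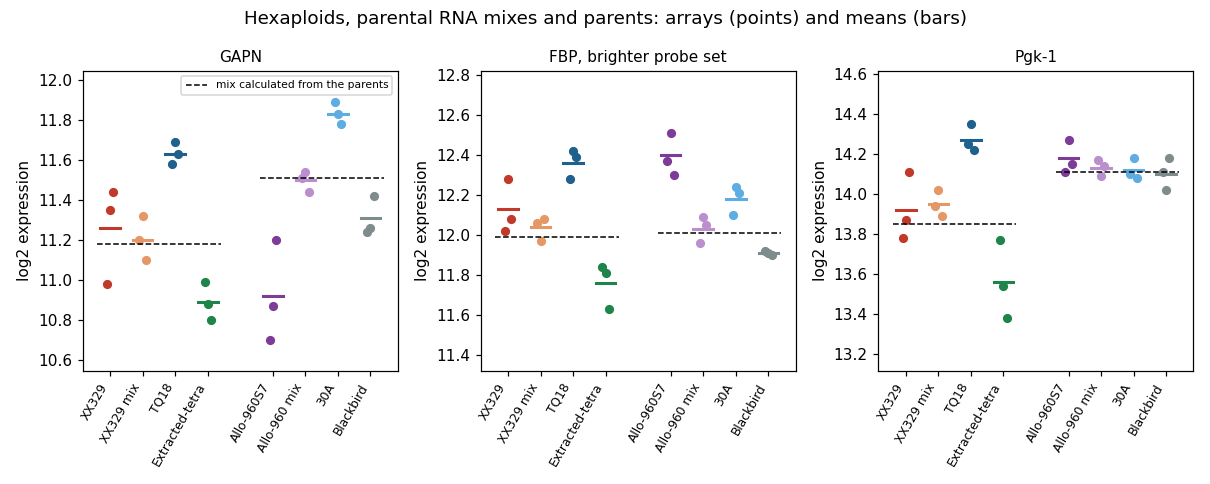
Log2 expression (y axis) of GAPN, FBP and Pgk-1 in each hexaploid, its parental RNA mix, its Aegilops tauschii parent and its tetraploid parent (x axis). Points are arrays and bars are means of 3. The dashed line is the mix calculated from the parents at 2 parts tetraploid to 1 part diploid. XX329 lies 0.07, 0.14 and 0.08 above its line for GAPN, FBP and Pgk-1, and Allo-960S7 lies 0.58 under it for GAPN and 0.39 above it for FBP.

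The RNA mixes give the level that the parents' transcripts would have if they simply added up. XX329 was called apart from its mix in 0 of 4 probe sets by limma, and none had an unadjusted p under 0.05 (smallest 0.338), where 1.88% of all tested were called. GAPN averaged 11.26 ± 0.24 in XX329 and 11.20 ± 0.11 in the mix (n = 3 each), 0.05 apart (95% interval −0.18 to 0.29). FBP was 0.09 apart (−0.10 to 0.29) and Pgk-1 −0.03 (−0.23 to 0.18). The measured mix lay 0.02, 0.04 and 0.10 above the calculated mix for GAPN, FBP and Pgk-1.

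Allo-960S7 departed from its mix in opposite directions for the 2 genes that moved. GAPN read 10.70, 10.87 and 11.20 in Allo-960S7, against 11.51, 11.54 and 11.44 in Allo-960 mix. FBP read 12.37, 12.51 and 12.30 in Allo-960S7, against 11.96, 12.09 and 12.05 in the mix. Neither gene overlapped between the groups. GAPN fell by 0.57 (SE 0.11), or 1.49-fold, to 10.92 ± 0.257 in Allo-960S7, against 11.50 ± 0.0526 in the mix (n = 3 each; limma adjusted p = 0.00102). FBP rose by 0.36 (SE 0.10), or 1.28-fold, to 12.40 ± 0.106, against 12.03 ± 0.0668 in the mix (n = 3 each; limma adjusted p = 0.0135). Pgk-1 was 0.04 apart (95% interval −0.16 to 0.25; limma adjusted p = 0.885). The 2 calls among 4 probe sets stand beside 8.54% of all tested.

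GAPN passed without each single array (−0.71 to −0.46, adjusted p up to 0.0183). FBP did not pass without replicate 2 of Allo-960S7 or replicate 1 of the mix (0.30 to 0.41 over single arrays left out, adjusted p up to 0.103). Both differences lie within the set of 12 arrays, the actin difference was −1.24 ± 0.1 in Allo-960S7 and −1.04 ± 0.0726 in the mix (n = 3 each), and both calls passed with it as a covariate. Centring on the hybridisation controls left the sizes at −0.55 and 0.39 but neither passed (adjusted p = 0.0799 and 0.138), and in a fit of these groups alone FBP did not (adjusted p = 0.0577).

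GAPN in Allo-960S7 also lay under both parents. It was 0.91 lower than in 30A (−0.91, SE 0.11), or 1.88-fold, with a limma adjusted p of 1.15e-07. Relative to Blackbird it was −0.38 (SE 0.11, limma adjusted p = 0.0157), and this call was lost without replicate 1 or 2 of Allo-960S7 or replicate 3 of Blackbird (−0.52 to −0.27 over single arrays left out), with control centring (adjusted p = 0.1) and in a fit of these groups alone (adjusted p = 0.0631). FBP rose relative to Blackbird (0.48, SE 0.10, or 1.4-fold; limma adjusted p = 0.000285) and passed without each single array. Its arrays in Allo-960S7, 12.30 to 12.51, all exceeded those of 30A, 12.10 to 12.24, but that difference of 0.21 (SE 0.10) missed the threshold (limma adjusted p = 0.0882). It passed with quantile normalization (0.24, adjusted p = 0.0455) and with array weights (0.22, adjusted p = 0.0343). Pgk-1 was not called against either parent, at 0.08 against Blackbird (95% interval −0.13 to 0.28) and 0.06 against 30A (−0.15 to 0.26). Of all tested probe sets 19.2% were called against Blackbird and 34.5% against 30A. These comparisons share the Allo-960S7 arrays with the comparison with the mix, and the mix holds RNA of both parents.

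The departures of the hexaploids from their mixes were compared directly. For GAPN they were 0.05 in XX329 and −0.57 in Allo-960S7, a difference of 0.63 (SE 0.16, limma adjusted p = 0.0214). That test called 4.02% of all tested probe sets. It rests on 12 arrays and did not pass when any of 6 of them was left out (Allo-960S7 replicates 1 and 2, Allo-960 mix replicate 2, XX329 replicates 2 and 3 and XX329 mix replicate 3; 0.51 to 0.77, adjusted p up to 0.0925). Nor did it pass with control centring (0.46, adjusted p = 0.477) or in a fit of these groups alone (0.63, adjusted p = 0.176). FBP departed by 0.09 in XX329 and 0.36 in Allo-960S7, and this difference was not called (−0.27, 95% interval −0.54 to 0.01; limma adjusted p = 0.36), so an unequal departure of FBP is not shown.

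**Figure D3:**
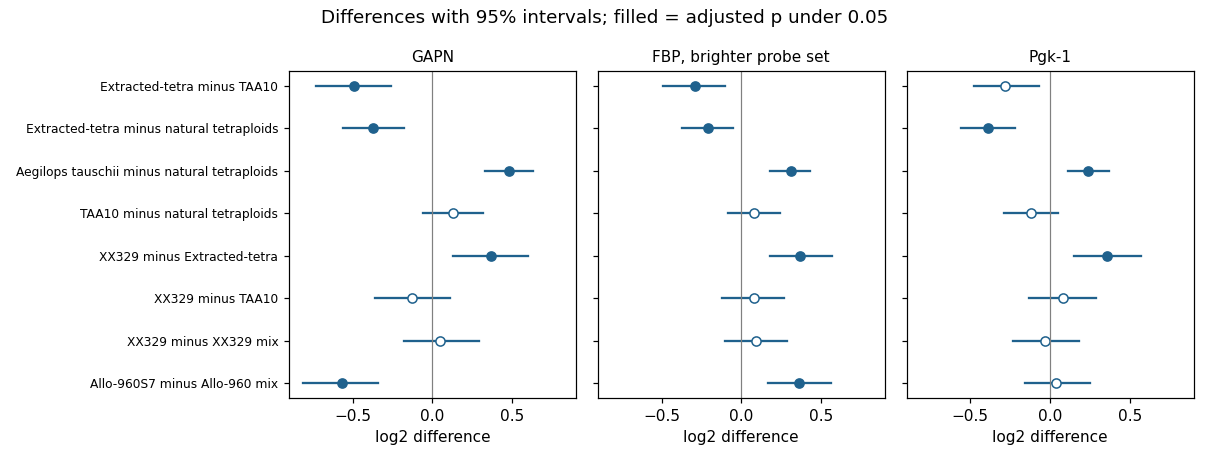
Log2 differences (x axis, first minus second group) of GAPN, FBP and Pgk-1 in 8 comparisons (y axis). Lines are 95% intervals from limma, not adjusted for multiple tests, and filled points have an adjusted p under 0.05. Extracted-tetra against TAA10 or the natural tetraploids lies left of 0, and Aegilops tauschii right of 0, for the 3 genes. No point is filled for TAA10 against the natural tetraploids, XX329 against TAA10 or XX329 against its mix.

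Between hexaploids, XX329 and TAA10 were called apart in 0 of the 4 probe sets by limma, and none had an unadjusted p under 0.05 (smallest 0.243), where 2.14% of all tested were called. GAPN was −0.13 in XX329 relative to TAA10 (95% interval −0.36 to 0.11), FBP 0.08 (−0.12 to 0.27) and Pgk-1 0.08 (−0.13 to 0.29). Allo-960S7 against TAA10 crosses the sets of arrays. GAPN was lower in Allo-960S7 (−0.46, SE 0.11, limma adjusted p = 0.00345), FBP higher (0.34, SE 0.10, limma adjusted p = 0.0087) and Pgk-1 higher (0.34, SE 0.10, limma adjusted p = 0.0157), where 22% of all tested were called. Centring on the hybridisation controls, which averaged 9.36 in Allo-960S7 and 9.83 in TAA10, turned the GAPN difference to 0.01, and the actin covariate ended the Pgk-1 call (0.30, adjusted p = 0.182). FBP lost the call without replicate 2 of Allo-960S7, and Pgk-1 without that array or replicate 1 of TAA10.

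Few other enzymes of these pathways carry a name on the array. A keyword list found PFK, the phosphofructokinase that opposes fructose-bisphosphatase in glycolysis, and rbcl, the large subunit of Rubisco (read at the brightest of its 28 probe sets), and PRK (LOC543283), an alias used for phosphoribulokinase, which forms the CO2 acceptor, was added after the annotation was read. Of these 3 genes, 0 were called by limma in Extracted-tetra against TAA10, in XX329 against its mix, and in Aegilops tauschii against the natural tetraploids. In that order, 18.3%, 1.88% and 51.6% of all tested probe sets were called, and 3 genes are too few to set against such shares. PRK stayed between group means of 14.07 in Extracted-tetra and 14.24 in TD265 and was called in 0 of the 19 comparisons. It had its lowest mean in Extracted-tetra, as the members did, at −0.05 relative to TAA10 (SE 0.07, limma adjusted p = 0.72). The other 2 list genes did not share this place: PFK had its highest mean there (3.68), and rbcl (8.65) was neither lowest nor highest. PRK, like Pgk-1, lay near the highest value in the whole table, 15.09, where an array can compress differences, which was not tested. In Allo-960S7 against its mix 1 of the 3 fell, where 8.54% of all tested probe sets were called. This was rbcl, which averaged 7.69 ± 0.372 in Allo-960S7 and 8.49 ± 0.244 in the mix (n = 3 each, −0.81, SE 0.25, limma adjusted p = 0.0434). Against the parents, rbcl in Allo-960S7 was −0.36 from Blackbird (limma adjusted p = 0.433) and −1.27 from 30A (limma adjusted p = 0.000153). The 30A arrays spread from 8.33 to 9.85, and the other rbcl probe sets were not read. In Extracted-tetra against the natural tetraploids 1 of the 3 rose, PFK (0.69, SE 0.11, limma adjusted p = 3.28e-05), at levels of 3.68 and 2.99, under the array medians, where a fold is not secure. That comparison called 24.4% of all tested probe sets.

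The array also carries control probe sets for glyceraldehyde-3-phosphate dehydrogenase, the phosphorylating enzyme that GAPN bypasses, and they were not tested. The brightest, for the 5′ end, averaged 6.39 ± 0.0924 in TQ18 and 6.16 ± 0.0882 in 30A at the top and 5.64 ± 0.259 in Extracted-tetra at the bottom (n = 3 each). TQ18 and Extracted-tetra were also the highest and the lowest group for Pgk-1. The actin 3′ minus 5′ difference was highest in Extracted-tetra, at 0.337, and was −0.677 in TQ18. Whether RNA quality bears on this 5′ reading was not tested. A second 5′ probe set, of the less specific x type, was also highest in TQ18 (6.02) but lowest in TTR13 (5.19). The control probe sets for the 3′ end and the middle lay at or under 4.69 on every array.

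Among 768 other annotated genes, each read at its lead probe set, those with group means most like GAPN over the 11 groups were LOC543065 (Pearson r 0.923), LOC542794 (0.911) and LOC100037579 (0.898). For FBP they were LOC543355 (0.932), LOC543348 (0.895) and raftin1b (LOC543009, 0.87), and for Pgk-1 LOC543119 (0.921), LOC100125744 (0.912) and Trx-M (LOC542973, 0.907), an m-type thioredoxin of the chloroplast. The median r over all 768 was 0.2 for GAPN, 0.0817 for FBP and 0.0932 for Pgk-1. No gene appeared in more than 1 of these groups of 3.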

How the data were processed

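The deposited file holds log2 expression values, 1 per probe set and array; RMA and limma are named in the submitters' processing notes, without versions, and no genome build is given in the sources used here. Background and detection were not given, so levels near the array medians carry no secure fold. From these values, all 33 arrays were fitted in limma 3.58.1 (R 4.3.3) as a cell-means model of 11 groups (22 residual, 28.51 total degrees of freedom), with 111 control probe sets left out. P values were adjusted by Benjamini-Hochberg within each of 19 comparisons, and a mean over lines weights lines equally. Precision is limited by the number of arrays. The labels call replicates biological without naming plants. Members were matched by gene symbol. The members, lists and rules were chosen with earlier results of these data known. The lead probe set of a gene has the highest mean, avoiding the x type. The pathway genes named are the called list genes with the smallest adjusted p, up to 2 per main comparison, and the 3 most alike genes per member are named. PRK was called in no comparison and is described outside this rule. RefSeq (IWGSC CS RefSeq v2.1) matched 2 of the 3 genes by Entrez ID and gave aliases only; sequences are not used here. The fit was tested on simulated data. Same-numbered replicates were paired only for TQ18 and 30A (r 0.1 to 0.14). Alternatives are listed in the closing section.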

Additional observations from a re-analysis of the deposited data

Results flagged for a closer look

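GAPN differed between the hexaploids in its departure from the parental RNA mix: 0.05 in XX329 and −0.57 in Allo-960S7, a difference of 0.63 on the log2 scale (SE 0.16, limma adjusted p = 0.0214, the test being of the difference itself). All 3 arrays of Allo-960S7 (10.70, 10.87 and 11.20) lay under the mix (lowest 11.44), while those of XX329 (10.98, 11.35 and 11.44) spread around theirs (11.20, 11.32 and 11.10). Each family lies in its own set of arrays, and whether that bears on the difference was not tested.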

How the results depend on the processing

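All 19 comparisons were recomputed under each alternative that applied, and differences are in the order named. Of the GAPN, Pgk-1 and FBP values from alternatives other than leaving out 1 array, 44 of 713 with a test lost a call, 29 gained one and 25 changed sign (8 of these with a call gained and 1 with a call lost). Why they moved was not tested, except that a fit of only the groups compared has fewer arrays.

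Centring on the hybridisation controls moved most. Called probe sets numbered 7248 in Extracted-tetra against TAA10, 586 in XX329 against its mix and 2795 in Allo-960S7 against its mix. Calls were lost in Extracted-tetra against TAA10 (GAPN −0.50, FBP −0.30), in Allo-960S7 against its mix (GAPN −0.55, FBP 0.39) and in Aegilops tauschii against the natural tetraploids (FBP 0.18, Pgk-1 0.11). Further losses were XX329 against Extracted-tetra (GAPN 0.10, FBP 0.11, Pgk-1 0.10) and TQ18 against Extracted-tetra (GAPN 0.40, FBP 0.26, Pgk-1 0.36). XX329 against TQ18 lost GAPN (−0.29) and Pgk-1 (−0.27), and 30A against Blackbird lost GAPN (0.38) and FBP (0.13). GAPN also lost the call in Allo-960S7 against Blackbird (−0.45) and TAA10 (0.01) and in the difference of departures (0.46). Signs changed in XX329 against its mix (GAPN −0.08, FBP −0.04), XX329 against TAA10 (FBP −0.19, dim FBP −0.06, Pgk-1 −0.19), Allo-960S7 against TAA10 (GAPN 0.01), TAA10 against the natural tetraploids (GAPN −0.02, FBP −0.06) and 30A against Blackbird (dim FBP −0.04, Pgk-1 −0.12). Across the sets of arrays they changed with calls gained in TQ18 against 30A (FBP −0.56, dim FBP −0.50, Pgk-1 −0.59), TTR13 against Blackbird (FBP −0.48, dim FBP −0.54) and TD265 against Blackbird (GAPN −0.58, FBP −0.52, dim FBP −0.41). Called probe sets numbered 53249, 45916 and 46502 of 61179 in these comparisons.

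The actin covariate left 5513 called probe sets in Extracted-tetra against TAA10 and 4702 in Extracted-tetra against the natural tetraploids, and calls were lost in the first (GAPN −0.45, FBP −0.36), the second (GAPN −0.32, FBP −0.28, Pgk-1 −0.36) and Aegilops tauschii against the natural tetraploids (Pgk-1 0.21), while Pgk-1 turned to −0.01 in 30A against Blackbird. With this covariate calls were also lost in XX329 against Extracted-tetra (GAPN 0.33, Pgk-1 0.32) and Allo-960S7 against TAA10 (Pgk-1 0.30). A fit of only the groups compared called 67 in XX329 against its mix and lost FBP in Extracted-tetra against TAA10 (−0.29) and the natural tetraploids (−0.21) and in Allo-960S7 against its mix (0.36). That fit also lost GAPN (0.37), FBP (0.37) and Pgk-1 (0.36) in XX329 against Extracted-tetra, and GAPN (−0.38) and Pgk-1 (−0.35) in XX329 against TQ18. GAPN was lost there in Allo-960S7 against Blackbird (−0.38) and in the difference of departures (0.63) too. Array weights called 12553 in Allo-960S7 against its mix and turned dim FBP to 0.03 in XX329 against its mix. Quantile normalization lost FBP in Extracted-tetra against TAA10 (−0.22) and the natural tetraploids (−0.18), and turned dim FBP to 0.01 in TAA10 against the natural tetraploids and Pgk-1 to −0.01 in 30A against Blackbird. Median centring lost FBP in Extracted-tetra against the natural tetraploids (−0.17) and left Pgk-1 at 0.00, with the sign turned, in Allo-960S7 against its mix and in 30A against Blackbird. Pgk-1 in Extracted-tetra against TAA10 (−0.28) and in TD265 against Blackbird (−0.30 to −0.27) passed without the dimmest probe sets, with quantile normalization, with trend and robust eBayes and with array weights, and the difference from Blackbird also with median centring (−0.28), control centring (−0.86) and the groups compared alone. FBP in Allo-960S7 against 30A passed with quantile normalization (0.24) and array weights (0.22). Leaving out TTR13 or TD265 lost FBP in Extracted-tetra against the natural tetraploids (−0.19 and −0.20), leaving out TD265 turned dim FBP to 0.01 in TAA10 against the natural tetraploids, and leaving out TQ18 lost Pgk-1 in Aegilops tauschii (0.16). Against the calculated mixes, which have no arrays and allow no test, Pgk-1 was 0.08 in XX329 in place of −0.03 on the measured mix.

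With the replicate block, FBP in XX329 against TQ18 passed (−0.24, adjusted p = 0.047) and no other member call changed. Same-numbered replicates were paired by the correlation of their deviations only for TQ18 and 30A.

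Leaving out each array in turn gave 548 to 2260 called probe sets in XX329 against its mix and 3349 to 5060 in Allo-960S7 against its mix. FBP ran from −0.34 to −0.23 in Extracted-tetra against TAA10, from −0.25 to −0.14 against the natural tetraploids and from 0.30 to 0.41 in Allo-960S7 against its mix, and some of these lost the call. Pgk-1 in Extracted-tetra against TAA10 ran from −0.38 to −0.19. The sign turned only in differences that were not called: in XX329 against its mix (GAPN −0.04 to 0.19, Pgk-1 −0.12 to 0.04, dim FBP −0.19 to 0.12), XX329 against TAA10 (GAPN −0.22 to 0.01, FBP 0.00 to 0.13, Pgk-1 −0.02 to 0.15), Allo-960S7 against its mix (Pgk-1 0.00 to 0.08, dim FBP −0.08 to 0.21), 30A against Blackbird (Pgk-1 −0.02 to 0.06), TD265 against Blackbird (GAPN −0.02 to 0.07), TTR13 against TD265 (FBP −0.03 to 0.13, dim FBP −0.28 to 0.04) and the difference of departures (Pgk-1 −0.17 to 0.00, dim FBP −0.29 to 0.07). Dim FBP also turned in Extracted-tetra against TAA10 (−0.15 to 0.10) and the natural tetraploids (−0.18 to 0.06), TAA10 against the natural tetraploids (−0.17 to 0.06), TTR13 against Blackbird (−0.10 to 0.22) and Allo-960S7 against 30A (−0.01 to 0.13). Signal of dim FBP and PFK, under the array medians, limits what can be read from them.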
